A study of Homo sapiens with 6 samples.

Results

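The genes described here encode the proteins with which epithelial cells hold on to their neighbours and seal the space between them. They comprise cadherins, catenins, desmosomal proteins, claudins and other tight junction proteins, nectins, connexins, EPCAM and the epithelial splicing regulators. The list holds 45 genes, of which 40 were read by at least 1 probe set that the array annotation ties to a single symbol. These 40 were among 19775 genes read in all, and had 98 of the 54613 probe sets tested. A gene with several probe sets was read by the brightest one, judged by mean log2 signal over the 6 arrays. CDH4, CDH13, CTNND1, F11R and ESRP2 were not analysed here, because no probe set used here gave their symbol alone.

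The study searched for microRNA targets in bladder cancer and reported the forkhead transcription factor FOXA1 as one. The arrays belong to its experiment on the consequences of raised FOXA1, which also profiled CpG methylation. EJ/T24 is an established human line of urinary bladder carcinoma cells, grown in DMEM with fetal calf serum. One group was transfected with a FOXA1 construct and the control group with empty plasmid, named pUC19 in the sample labels, whereas the methods name a pcDNA3 vector. Each group had 3 HG-U133 Plus 2.0 arrays. Every array, control included, came from cells that had taken 24 µg of plasmid DNA by lipofection, and the sources used here do not give the time between transfection and lysis. The design therefore covers 1 cell line and a transient transfection. The methods say that experiments were done in triplicate, without stating whether the 3 arrays came from separate cultures, so p-values measure the spread between arrays, which may be technical. The cells were read in bulk, so that fewer cells with a transcript and less of it in each cell cannot be told apart.

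Classical cadherins span the membrane, bind cadherins of the neighbouring cell and are anchored to actin by catenins. Desmosomes use related cadherins and are anchored to keratin filaments by plakoglobin, plakophilins and desmoplakin. Claudins and occludin form the tight junction strands that limit passage between cells, and scaffolds such as ZO-1 sit beneath them. Urothelium is a barrier epithelium in which these structures are well developed, and loss of E-cadherin with gain of N-cadherin is a familiar mark of invasive carcinoma cells. FOXA1 opens chromatin at forkhead motifs, and E-boxes are the sites bound by repressors of the SNAI and ZEB families.

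FOXA1 itself was read by 2 probe sets. At the brighter, the signals were 38.9, 34.8 and 31.9 in FOXA1 transfected arrays 1 to 3 and 21.8, 24.4 and 21.0 in control arrays 1 to 3, without overlap of the groups. The log2 difference was 0.65 (SE 0.23, n = 3 arrays a group, limma adjusted p = 0.307, exact two-sided permutation p = 0.1, the smallest that 3 arrays against 3 can give). At the dimmer probe set the signals were 2.5, 6.8 and 6.6 against 8.0, 7.3 and 5.9, with overlap (-0.54, SE 0.64). The brighter probe set's groups overlapped once arrays were centred on their medians (0.47), and the mean over both probe sets differed by 0.06, with overlap (limma adjusted p = 0.973). The sources used here do not say whether the construct carries the sequence that these probe sets read. According to the methods, FOXA1 was also checked by western blot in a small part of the transfected cells. A blot reads protein, whereas the values here are RNA signals. All signed values are FOXA1 transfected minus control, as the arrays are labelled. That direction is the reverse of the signs in the study's own table of changed genes. None of the genes in that table is among those given here, so no values of the reversal are printed.

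Several facts of the arrays bear on what follows. Median signals ranged from 14.4 to 17.5 with FOXA1 and from 12.3 to 16.1 with empty plasmid. ACTB, whose 3' to 5' ratio reflects how intact the RNA is, gave 2.37 ± 0.228 (SD, n = 3) with FOXA1 and 1.73 ± 0.188 (SD, n = 3) in control arrays, without overlap, whereas that ratio of GAPDH was 0.920 and 0.899, with overlap (exact two-sided permutation p = 0.3). The part of RNA quality in the results was not tested. Of the urothelial and epithelial markers 13 of 14 were read. KRT18 was bright (2080 to 2544), whereas KRT13, KRT19 and UPK3A lay under 3.5, the 20th percentile of all signals, in all 6 arrays. The log2 difference was above 0 in 9 of the 13 and below 0 in 4. KRT7 and UPK1B were without overlap, higher in FOXA1 transfected cells (15.4% of the 13, against 19.7% of all genes). Summed over 20 leukocyte, endothelial, fibroblast, muscle and nerve markers, signals ranged from 263 to 356 in FOXA1 transfected and from 261 to 307 in control arrays, with 11 of 20 above 0 in log2 difference. Among these PECAM1 alone was without overlap (42.8, 54.9 and 52.0 against 30.5, 35.8 and 42.2). Its part in the results was not tested.

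Promoter sequence was available from RefSeq (GRCh38.p14, 44 promoters of 29 of these genes, from 250 bases before to 50 after the start). The stretches printed are those around a forkhead core, since FOXA1 is a forkhead factor, and around E-boxes of members with an unadjusted p under 0.05 or without overlap of the groups, 1 for each, whichever way their signals lay. Both strands were searched for the forkhead cores TGTTTAC and for its variant TGTTTGC, and for the E-box with the letters CAGGTG. The cores cannot match at the same position, and 1 match in each stretch is in capitals. The JUP stretch printed for its E-box begins with a further E-box match, on the opposite strand, in lower case. On the opposite strand the variant core reads GCAAACA, and the E-box then reads CACCTG.
CDH2, chr18:28036809-28036837, minus strand: tattttgttttGCAAACAgacaaaaggac
JUP, chr17:41786076-41786104, minus strand: tggggccctatTGTTTGCgcccagcttgc
TJP1, chr15:29820889-29820917, minus strand: tcacagaagctTGTTTGCtggctgggaga
PERP, chr6:138107562-138107590, minus strand: agaacccagccTGTTTACcagcggccccg
DSC2, chr18:31101296-31101324, minus strand: tttctgggaatTGTTTACtctgagagaag
OCLN, chr5:69492503-69492530, plus strand: catccgagtttCAGGTGaattggtcacc
JUP, chr17:41786003-41786030, minus strand: cacctgccgagCAGGTGagcgcacggag
DSP, chr6:7541575-7541602, plus strand: aagaaaccggcCAGGTGtggcctaggcg
AFDN, chr6:167827474-167827501, plus strand: ggcgcggcagtCACCTGttcccctctcc

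TGTTTAC was found in 2 of the 44 promoters (4.55%, against 3.42% of all 35116 promoters) and TGTTTGC in 3 (6.82% against 3.89%). CAGGTG was found in 12 promoters of 11 genes (27.3% against 20.6%), namely AFDN, CLDN3, CLDN7, DSC2, DSG2, DSP, GJB2, JUP, OCLN, TJP1 and TJP3. A match describes these letters only, and binding was not measured in these samples.

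Across the junction genes no member passed the test, and the differences that stood out went in both directions. N-cadherin (CDH2) lay lower in FOXA1 transfected cells, together with occludin and afadin, whereas plakoglobin, tricellulin, nectin-3 and connexin 43 lay higher, all without overlap of the groups. E-cadherin, EPCAM and the epithelial claudins CLDN3, CLDN4 and CLDN7 gave signals near the lower end of the arrays in both groups. At an adjusted p under 0.05, limma called 0 of 40 members, against 18 of 19775 genes (0.0910%). At an unadjusted p under 0.05 it gave 4 members higher (JUP, MARVELD2, NECTIN3 and GJA1, 10%) and 4 lower (CDH2, DSP, PERP and AFDN, 10%), where 9.07% and 5.49% of all genes were called. All of them were above the median signal of 13.5, where they made up 8 of 23 members (34.8%, against 19.7% of all such genes). Groups did not overlap in 7 of 40 members (17.5%, against 19.7% of all genes). Of these 4 lay higher and 3 lower, against 12.5% and 7.25% of all genes. All 7 were among the 23 members above the median signal, a share of 30.4%, where 25.1% of all such genes were without overlap.

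The log2 difference was above 0 in 23 members (57.5%, all genes 59.2%) and below 0 in 17, but with each array centred on its median 16 of 40 were above 0 (all genes 38.3%). The members' median was 0.04 (all genes 0.07), and with centring -0.15 (all genes -0.11). Differences are given on the deposited scale, and each is to be read beside that median of all genes.

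**Figure D1:**
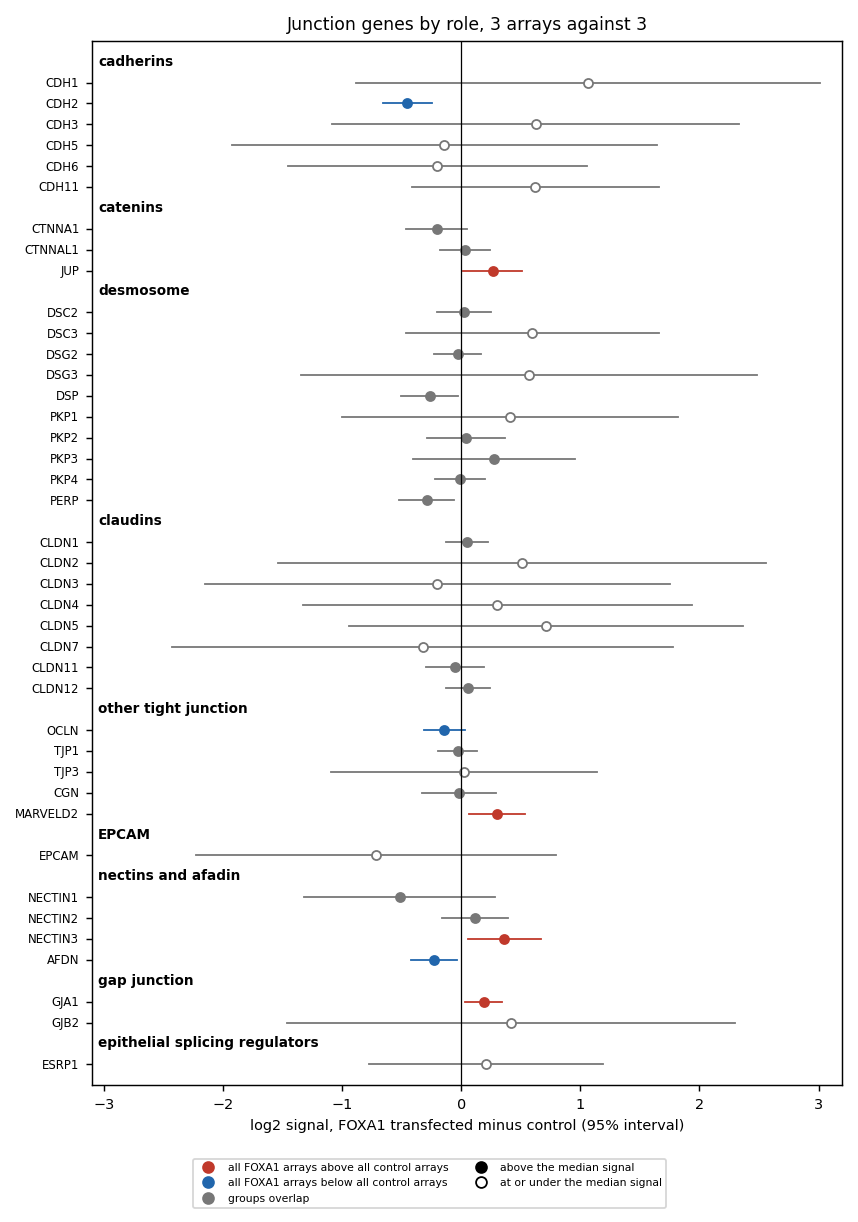
Log2 difference of signal (FOXA1 transfected minus control, horizontal axis) with its 95% interval for the 40 junction genes at their brightest probe set, grouped by role, from 3 arrays a group. Open circles, the 17 members at or under the median signal, have intervals several log2 units wide, and 7 filled circles are coloured where the groups do not overlap, CDH2 lying farthest below 0 among them.

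Among the cadherins, CDH2 had the smallest p of all members. N-cadherin, the cadherin of neural and mesenchymal cells, gave signals of 396.8, 348.8 and 339.2 in FOXA1 transfected arrays 1 to 3 and of 518.3, 513.2 and 452.9 in control arrays 1 to 3. The means were 361.6 ± 30.9 and 494.8 ± 36.4 (SD, n = 3), a ratio of 0.730. On the log2 scale the difference was -0.45 (SE 0.09, 95% interval -0.66 to -0.25, limma adjusted p = 0.118). Every FOXA1 transfected array thus lay below every control array. The dimmer CDH2 probe set gave 56.8, 45.3 and 33.3 against 71.5, 83.9 and 59.8, again without overlap (-0.69, SE 0.21, limma adjusted p = 0.263). Quantile normalization, median centring and the mean over both probe sets changed the CDH2 values, and the groups stayed without overlap in each. The other alternatives could not bring an overlap. Over all 14 alternative settings the limma adjusted p of CDH2 ranged from 0.0574 to 0.584. The promoter stretch printed for CDH2 carries TGTTTGC on the opposite strand.

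E-cadherin (CDH1), the cadherin of epithelia, was dim, and no difference was detected. Its 6 signals were 5.3, 1.0 and 2.9 against 0.6, 2.0 and 1.4, of which 5 lay under 3.5. The log2 difference was 1.06 (SE 0.88, 95% interval -0.88 to 3.01), an interval that holds differences of both signs. P-cadherin (CDH3), the cadherin of basal epithelial cells, was under 3.5 in all 6 arrays. CDH5, the endothelial cadherin, was under 3.5 in 3 arrays. CDH6 and CDH11, cadherins found in kidney and in mesenchyme, had mean signals of 9.43 to 14.4, and their groups overlapped. The dimmer CDH6 probe sets overlapped as well, with differences from -2.30 (3.5, 0.3 and 0.6 against 5.0, 2.9 and 5.2) to 1.21. A dimmer CDH11 probe set was without overlap (10.9, 9.7 and 3.3 against 1.5, 1.9 and 3.2, log2 difference 1.75, SE 0.75), with 4 of the 6 values under 3.5.

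The catenins were well measured. Plakoglobin (JUP), which joins both desmosomal and classical cadherins to the cytoskeleton, had signals of 220.2, 180.4 and 178.0 in FOXA1 transfected and 166.3, 151.3 and 162.1 in control arrays. All FOXA1 transfected arrays lay above the control arrays, with array 1 apart from the other two. The difference was 0.26 (SE 0.11, limma adjusted p = 0.405), and with centring on the array medians it was 0.08, with overlap. Alpha-catenin (CTNNA1), the link from cadherins to actin, gave 1458.9, 1263.4 and 1030.6 against 1430.2, 1553.6 and 1314.9, with overlap (-0.21, SE 0.12, limma adjusted p = 0.550). That probe set is of the _x_at class, which can bind related transcripts, as is the next brightest one (-0.23). The brightest outside that class gave 645.4, 594.7 and 526.5 against 526.3, 592.9 and 460.5, a difference of the other sign (0.16), with overlap. CTNNAL1, an alpha-catenin relative, differed by 0.03 (SE 0.10).

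Desmosome genes were all read, 10 of 10, with 6 above and 4 below 0, a median of 0.03 and no member without overlap. Desmoplakin (DSP), which ties the plaque to keratin, had signals of 256.8, 240.9 and 229.2 against 302.4, 324.8 and 250.8. Only control array 3 lay below a FOXA1 transfected array (-0.27, SE 0.11, limma adjusted p = 0.393). PERP, a tetraspan membrane protein needed for desmosome assembly, had 1544.0, 1314.0 and 1153.6 against 1614.5, 1737.5 and 1523.2 at an _x_at probe set (-0.29, SE 0.10, limma adjusted p = 0.322). Here FOXA1 transfected array 1 lay just above control array 3. The next brightest PERP probe set gave 624.9, 552.3 and 476.8 against 771.1, 792.8 and 531.8, also with overlap (-0.33), and its 3 dimmer ones, with overlap too, ranged from -0.01 to 1.13. Both genes had their lowest control signal in array 3.

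Plakophilin 3 (PKP3), which gathers desmosomal proteins at the membrane, was just above the median signal, with 21.5, 24.2 and 18.4 against 16.8, 14.6 and 22.0, and its groups overlapped (0.28, SE 0.31). The desmosomal cadherins expressed most widely, DSG2 and DSC2, differed little at their brightest probe sets (-0.03, SE 0.09, and 0.02, SE 0.10). A dimmer DSC2 probe set of the _x_at class was without overlap (54.7, 39.3 and 32.3 against 27.7, 28 and 29.8, log2 difference 0.53), so the probe sets of this gene did not give 1 answer. PKP2 and PKP4 had differences of 0.04 (SE 0.15) and -0.01 (SE 0.10), and a dimmer PKP4 probe set was without overlap (0.30, SE 0.26). The proteins of stratified epithelia, DSC3, DSG3 and PKP1, were at or under the median signal, with differences of 0.41 to 0.60 and SE of 0.48 to 0.87. At the brightest DSC3 probe set the groups overlapped, while both of its dimmer probe sets were without overlap (9.8, 8.0 and 7.8 against 5.5, 3.0 and 3.4 at the brighter of them).

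**Figure D2:**
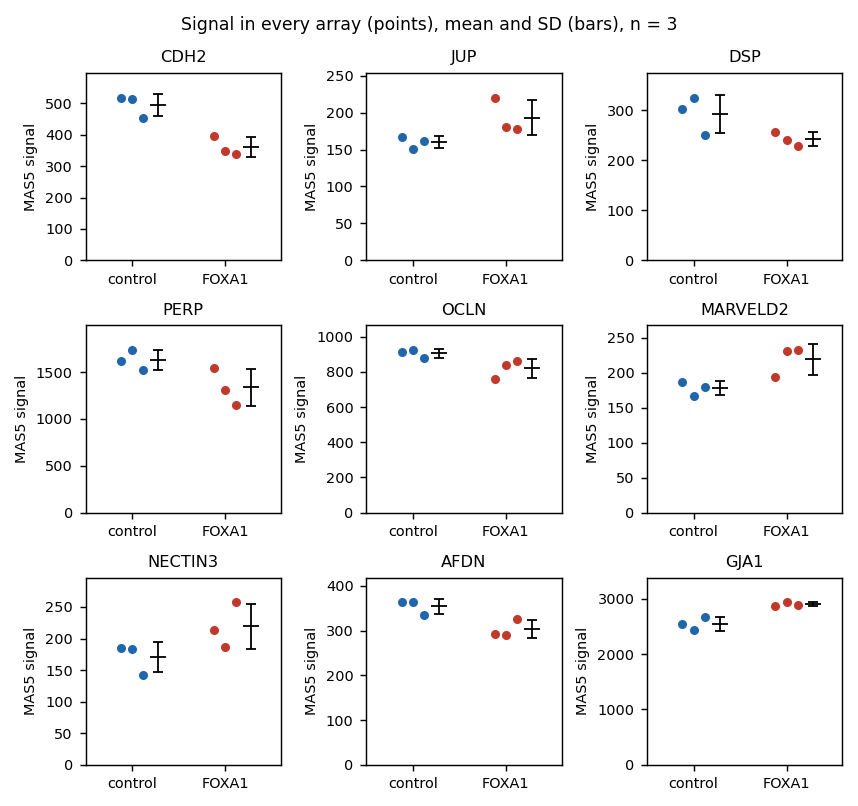
MAS5 signal (vertical axis, linear and from 0) of 9 junction genes in each of the 3 control (blue) and 3 FOXA1 transfected (red) arrays, with mean and SD beside the points. The nearest arrays of the CDH2 groups stand at 396.8 and 452.9, and DSP and PERP overlap by 1 array a group.

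Claudins other than CLDN2 were either bright or near the lower end of the arrays, and no claudin among the members was without overlap. CLDN1, a sealing claudin found in most epithelia, had 3876.3, 3956.9 and 3522.1 against 3604.9, 3939.2 and 3445.8. Its groups overlapped throughout. The difference was 0.05 (SE 0.08, 95% interval -0.13 to 0.23, limma adjusted p = 0.872), and its sign turned with quantile normalization and with centring. CLDN11 and CLDN12, both above the median signal, differed by -0.05 (SE 0.11) and 0.06 (SE 0.08).

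The other claudins were dim. CLDN4, a claudin of tight epithelia, gave 2.2, 4.7 and 2.1 against 2.1, 1.9 and 2.9, with 5 of 6 values under 3.5. CLDN7, a claudin found along the lateral membrane, gave 1.1, 6.8 and 2.5 against 1.1, 7.1 and 4.7 (-0.32, SE 0.96). Its lowest value was the same in both groups, and their highest values, 6.8 and 7.1, stood close together. CLDN2, which forms a cation channel, varied widely within both groups, with 3.4, 13.4 and 16.3 against 1.4, 14.8 and 12.4. CLDN2, CLDN3 and the endothelial CLDN5 had differences of -0.20 to 0.71 with SE of 0.75 to 0.93. No difference was detected in these 5 genes.

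Among other tight junction proteins, OCLN and MARVELD2 went in opposite directions. Occludin (OCLN), a strand protein, had 759.7, 840.7 and 862.0 in FOXA1 transfected and 913.9, 925.7 and 877.4 in control arrays. The groups did not overlap but nearly met, at 862.0 and 877.4 (-0.14, SE 0.08, limma adjusted p = 0.527), and the other 3 OCLN probe sets gave -0.11, 0.16 and 0.31, all with overlap. Tricellulin (MARVELD2), the related protein of 3-cell contacts, had 193.8, 230.8 and 232.4 against 186.0, 166.3 and 179.6. All its FOXA1 transfected arrays lay above the control arrays (0.30, SE 0.11, limma adjusted p = 0.312), but its other probe set gave -0.18 with overlap. The MARVELD2 groups overlapped with centring (0.12) and with the mean over both probe sets (0.06), and the OCLN groups overlapped under the same alternatives (-0.33 and 0.06). ZO-1 (TJP1), the main scaffold, had 1073.6, 1051.6 and 1061.6 against 1109.8, 1125.9 and 1021.0, an overlap that leaves a 95% interval of -0.19 to 0.13 around -0.03. Cingulin (CGN), a cytoplasmic partner of ZO-1, differed by -0.02 (SE 0.14) at its brightest probe set, and its dimmer one was without overlap (25.8, 23.0 and 29.5 against 43.3, 32.7 and 29.9, log2 difference -0.42). ZO-3 (TJP3) was dim (0.02, SE 0.51).

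EPCAM, an adhesion protein of simple epithelia, had signals of 1.9, 5.8 and 6.8 against 8.0, 5.5 and 7.5. Both groups lay far below the median signal and overlapped (-0.71, SE 0.69, 95% interval -2.22 to 0.80). ESRP1, the splicing factor that sets epithelial exon use in transcripts such as those of the FGF receptors, had 14.1, 10.8 and 12.5 against 9.3, 8.0 and 16.6. Its difference of 0.21 (SE 0.44) was within the spread of the control arrays, and its sign turned with quantile normalization.

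Nectins are immunoglobulin-like adhesion molecules, and afadin (AFDN) ties them to actin. Nectin-3 (NECTIN3) had 213.9, 187.0 and 257.8 against 184.4, 183.9 and 143.0. The groups were without overlap, though they nearly met at 187.0 and 184.4 (0.36, SE 0.14, limma adjusted p = 0.359), and overlapped once arrays were centred on their medians. A second NECTIN3 probe set gave 132.5, 143.4 and 143.7 against 109.0, 118.6 and 123.3, without overlap too (0.26, SE 0.11, limma adjusted p = 0.402). Afadin had 292.8, 290.7 and 326.4 against 364.0, 363.5 and 335.6. All FOXA1 transfected arrays lay below the control arrays (-0.23, SE 0.09, limma adjusted p = 0.364), while its other 6 probe sets were dimmer and overlapped, with differences from -0.82 to 2.41. NECTIN1 and NECTIN2 overlapped (-0.52, SE 0.36, and 0.12, SE 0.12), though a NECTIN2 probe set under the median signal did not (0.69, SE 0.44).

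Connexin 43 (GJA1), a widely expressed gap junction channel, had signals of 2867.8, 2940.9 and 2895.8 against 2536.5, 2433.5 and 2679.0. The FOXA1 transfected arrays, with an SD of 36.9 (n = 3), all lay above the control arrays, whose SD was 123 (n = 3). The log2 difference was 0.19 (SE 0.07, limma adjusted p = 0.350), and with each array centred on its median it was 0.0053, with overlap. Connexin 26 (GJB2) was under 3.5 in all 6 arrays.

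**Figure D3:**
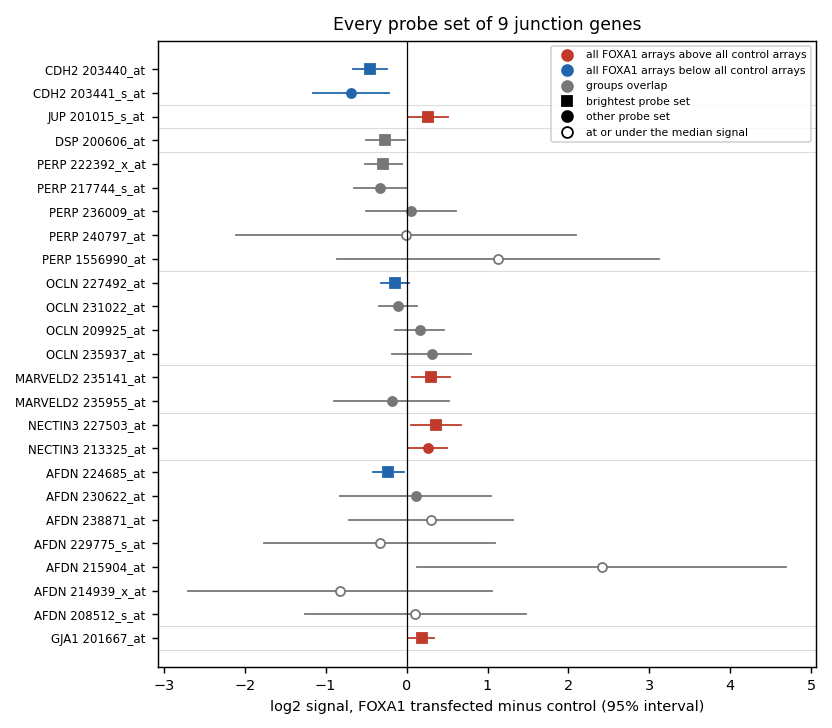
Log2 difference with 95% interval at every probe set of the 9 genes in the plot of signals by array, squares for the brightest probe set of a gene. Both CDH2 and both NECTIN3 probe sets are without overlap in 1 direction each, whereas PERP, OCLN, MARVELD2 and AFDN have further probe sets on the other side of 0.

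Brighter members had smaller SE, in a fit whose intensity trend itself ties the SE to signal. The SE of the log2 difference had a median of 0.10 over the 23 brighter members and of 0.75 over the 17 dimmer ones. The brighter members had 11 differences above and 12 below 0, a median of -0.01, and a range from -0.52 (NECTIN1) to 0.36 (NECTIN3). The dimmer members had a median of 0.41 and a range from -0.71 (EPCAM) to 1.06 (CDH1). In 12 of them at least 1 array lay under 3.5, and in CDH3 and GJB2 all 6 did.

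**Figure D4:**
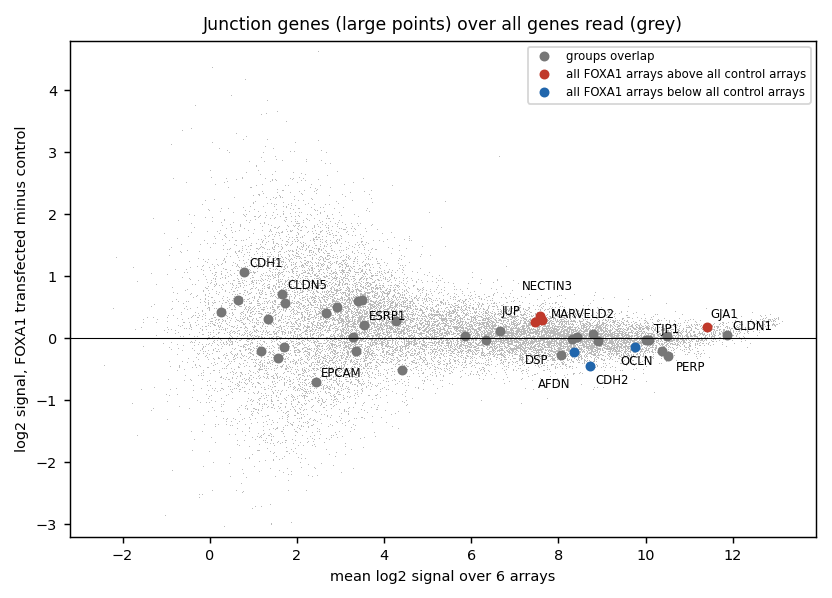
Log2 difference (vertical axis) against mean log2 signal over 6 arrays (horizontal axis) for 19775 genes (grey) and the 40 junction genes (large points). Junction genes with large differences lie at low signal, where all genes scatter widely. The 7 coloured members without overlap lie at high signal, with CDH2 the farthest of them from 0, at -0.453.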

How the data were processed

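RNA of FOXA1 transfected and control EJ/T24 cells was labelled with biotin and read on HG-U133 Plus 2.0 arrays, 3 for each group. The authors deposited 1 intensity per probe set and array, a linear MAS5 signal. Their methods further name RMA log2 values and SAM, which were not used here. Limma stands in for SAM. All sample columns were mapped by their labels. After 62 array controls were left out, 54613 probe sets were converted to log2, with 25 values of 0 set to 0.1, and compared with limma 3.58.1 in R 4.3.3 (eBayes with an intensity trend, two-sided, Benjamini-Hochberg over all probe sets, threshold 0.05). Genes are those of the 41091 probe sets with 1 symbol, of which 41037 matched a current gene by Entrez number, and 1801 with several symbols name none.

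The members and lists were chosen with earlier results of these data known. Members were given array by array where their unadjusted p was under 0.05, where groups did not overlap, or where they define their role. Further probe sets were named after their values were seen. Alternatives were no intensity trend, quantile normalization, median centring, a floor at the 20th percentile (3.5), dim probe sets (at or under 13.5) left out, _x_at probe sets left out, the mean over a gene's probe sets, a replicate block, and each array left out. The fit was also run on simulated data, with changes added only to probe sets above the median signal. No outcome of that run is used here. Promoters came from RefSeq (GRCh38.p14). The array files name no genome build.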

Additional observations from a re-analysis of the deposited data

How the results depend on the processing

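Members past the adjusted threshold numbered 0 in all 14 alternative settings, and 1 (no intensity trend, all genes 7.96%) to 9 (replicate block, all genes 16.6%) of 40 members had an unadjusted p under 0.05. Median centring left 4 of 40 (all genes 10.1%), and leaving out control array 2 left 2 (10.1%). The sign of CDH2, JUP, DSP, MARVELD2, NECTIN3 and GJA1 was kept in all 14. Several of these settings could not turn it, because they leave the log2 difference of these genes unchanged. Members without overlap numbered 7 to 15 with 1 array left out, with 12 of 40 without FOXA1 transfected array 1 (all genes 29.8%), 11 without array 2 (31%) and 15 without control array 3 (35.5%), since fewer arrays overlap less often. With dim probe sets left out, 11 of 23 members were above 0 and their median was -0.0083. The members' median was -0.1466 with median centring, 0.0925 with the mean over the probe sets of a gene, and 0.0229 to 0.0998 with 1 array left out. CLDN1 turned to -0.0463 with quantile normalization, -0.1346 with centring and -0.0186 with the probe set mean, and ESRP1 to -0.0094 with quantile normalization and -0.1373 with the probe set mean. CTNNA1 turned to 0.164 without _x_at probe sets. With the probe set mean, OCLN turned to 0.0555, TJP1 to 0.0084, AFDN to 0.2215 and PERP to 0.1138. With 1 array left out, ESRP1 ranged from -0.0037 to 0.5229, CLDN4 from -0.0735 to 0.5076 and CLDN7 from -1.1219 to 0.3111. FOXA1 was 0.468 (adjusted p = 0.619) with centring and 0.0554 (adjusted p = 0.973) with the probe set mean, both with overlap. The replicate block, which leaves signals and overlap unchanged, gave 0 members past the threshold and a limma adjusted p of 0.285 for FOXA1. The deviations of arrays with the same number correlated at 0.0503, 0.182 and 0.111, so the numbers were not taken to pair the arrays, although each array correlated best with its own number. For the other turned signs the cause was not tested. The 17 dimmer members have wide intervals (median SE 0.75), and 3 arrays a group limit the precision of the others (median SE 0.10).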

Other observations

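Beyond the genes above, 72 other genes of the same structures were listed and 67 read. Each is given at its brightest probe set alone, and the further probe sets that many of them have were not compared. None passed limma at an adjusted p under 0.05, and 11 had an unadjusted p under 0.05 (16.4%, all genes 14.6%), 8 of them higher (11.9%, all genes 9.07%) and 3 lower (4.48%, all genes 5.49%) in FOXA1 transfected cells. Their groups did not overlap in 13 genes (19.4%, all genes 19.7%), 10 higher and 3 lower, where 12.5% and 7.25% of all genes were so. The median log2 difference was 0.16. The leading genes among those that lay lower were well above the median signal. CLDN16, a claudin known from renal magnesium transport, had signals of 112.0, 154.6 and 118.9 in FOXA1 transfected and 195.6, 201.5 and 173.6 in control arrays (-0.58, SE 0.13, limma adjusted p = 0.156). PRKCZ, the atypical protein kinase C of the apical polarity complex, had 211.1, 199.7 and 173.1 against 252.7, 286.2 and 253.9 (-0.44, SE 0.11, limma adjusted p = 0.164). In both, every FOXA1 transfected array lay below every control array.

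Among those that lay higher, CXADR, a tight junction adhesion protein and virus receptor, had 201.8, 210.5 and 193.9 against 179.6, 155.1 and 157.7 (0.30, SE 0.10, limma adjusted p = 0.292). GRHL1, a grainyhead factor that regulates desmosomal genes, had 92.0, 87.9 and 106.7 against 71.5, 68.9 and 81.3 (0.37, SE 0.14, limma adjusted p = 0.337). ARVCF, a catenin of the p120 family, had 71.4, 46.4 and 48.8 against 27.3, 31.6 and 35.0 at an _x_at probe set (0.81, limma adjusted p = 0.202). The groups of these 3 genes were without overlap. PARD6B, a polarity protein, had 316.3, 278.5 and 280.1 against 274.1, 237.1 and 190.9, also without overlap (0.33, SE 0.13, limma adjusted p = 0.359), and PPL (periplakin), a desmosomal linker, had 72.3, 45.4 and 46.5 against 89.7, 103 and 56, with overlap (-0.59, SE 0.25, limma adjusted p = 0.401). The other 4 genes with an unadjusted p under 0.05 were at or under the median signal. DSC1 had 6.9, 3.6 and 6.6 against 0.3, 0.2 and 0.8, MARVELD3 had 5.4, 30.8 and 28.2 against 3.3, 0.9 and 2.1, CDH9 had 8.0, 3.2 and 14 against 1.5, 0.7 and 1.3, and CTNNA2 had 6.0, 5.7 and 13.5 against 2.0, 1.1 and 4.2. The groups of these 4 genes were without overlap. Their log2 differences ranged from 1.88 (CTNNA2, SE 0.76, limma adjusted p = 0.383) to 3.91 (DSC1, SE 0.81, limma adjusted p = 0.118). All control values of these 4 genes but 1 of CTNNA2 lay under 3.5, the 20th percentile of all signals. Beta-catenin (CTNNB1), the partner of classical cadherins, differed by 0.09, with overlap.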
